A study of Mus musculus with 8 samples.

Results

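The genes described here are 10 immediate early and heat shock genes, chosen by symbol: the AP-1 subunits Fos, Fosb, Jun and Junb, the transcription factors Egr1 and Atf3, the early response genes Ier2 and Dusp1, and the inducible chaperones Hspa1a and Hspa1b. All 10 had a probe set annotated to that gene alone, 13 probe sets in all among the 45101 on the array, and no probe set shared with another gene named a member. They were read on 8 arrays of the organ of Corti, which holds the sensory cells of hearing, from mice at postnatal day 16. Apical and basal parts were measured separately, with both cochleae of 1 mouse combined in each sample.

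Every mouse carried Atoh1-Cre, a transgene that drives recombination in hair cells. Conditional knockout (cKO) mice, Atoh1-Cre;Dicer1(flox/flox), had 2 floxed alleles of Dicer1, the enzyme that makes mature microRNAs. Littermate controls, Atoh1-Cre;Dicer1(flox/wt), had 1 floxed and 1 wild-type allele, so that they too carried Cre and the floxed gene. The 4 groups (control apex, control base, cKO apex, cKO base) held 2 samples each. Replicate 1 of the apex and replicate 1 of the base in a genotype were taken as the same mouse, as were those numbered 2, which gives 4 presumed mice. Hair cells are a minority of the cells in such a sample, and fewer cells of a type and less RNA per cell cannot be told apart in these values.

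Immediate early genes are transcribed within minutes of a stimulus, because the factors that switch them on (serum response factor with its ELK partners, and CREB) are already in the cell. Most of their products are short-lived transcription factors, and others, such as the phosphatase DUSP1, shut the signal down again. Inducible HSP70 chaperones are driven by heat shock factor when proteins misfold. Both classes are known to respond to injury and to handling of tissue during dissection. The labels state that the tissue was dissected and lysed at once, and the time this took for each mouse is not given in the sources used here.

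The promoters of Fos and Atf3, the members over the filter that differed most between arrays, and of the HSP70 pair, whose members are hard to tell apart, are shown because the results turn on them. The sequences are RefSeq's, on GRCm38.p6, 5′ to 3′ on the strand of the gene, and end at the base before the annotated start site. In the 150 bases of Fos (chr12:85473740-85473889, plus strand) and of Atf3 (chr1:191183334-191183483, minus strand), capitals mark the CRE core (TGACG on either strand, found in the CREB binding site) and the TATA box (TATAAA on either strand). In the 250 bases of Hspa1a (chr17:34972157-34972406, minus strand) and Hspa1b (chr17:34959239-34959488, minus strand), capitals mark the bases that differ between the genes.
Fos: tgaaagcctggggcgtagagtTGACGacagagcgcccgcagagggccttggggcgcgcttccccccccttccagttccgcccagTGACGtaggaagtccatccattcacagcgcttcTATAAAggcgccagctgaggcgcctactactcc
Atf3: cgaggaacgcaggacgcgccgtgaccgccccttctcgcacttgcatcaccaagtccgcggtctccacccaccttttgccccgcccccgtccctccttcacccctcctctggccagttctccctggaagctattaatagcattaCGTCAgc
Hspa1a: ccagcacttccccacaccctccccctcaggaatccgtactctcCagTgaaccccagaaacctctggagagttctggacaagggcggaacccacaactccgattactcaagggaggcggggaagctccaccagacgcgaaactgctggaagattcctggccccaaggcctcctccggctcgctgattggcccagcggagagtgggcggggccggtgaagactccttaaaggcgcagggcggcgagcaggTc
Hspa1b: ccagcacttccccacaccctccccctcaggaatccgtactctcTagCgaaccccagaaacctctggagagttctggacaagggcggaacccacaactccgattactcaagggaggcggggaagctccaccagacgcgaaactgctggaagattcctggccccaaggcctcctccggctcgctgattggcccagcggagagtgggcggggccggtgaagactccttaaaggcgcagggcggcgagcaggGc
The HSP70 promoters were identical at 247 of 250 bases (98.8%). Windows of 300 bases (250 before and 50 after the start) were listed for 8 of the 10 members, with Egr1 and Ier2 not in the table. A CRE core stood in 5 of the 8 (Fos, Fosb, Junb, Atf3 and Dusp1) and in 20.8% of all 32851 windows in the table. The full CRE, TGACGTCA, which contains that core, was in Dusp1 alone among the 8 and in 1.79% of all. TATAAA was in Fos and Junb (13.6% of all), beginning at base -33 in Fos and at the start site itself (base 1) in Junb. The GC box, GGGCGG, was in 7 of the 8 (35.7% of all). No match to the AP-1 site (TGACTCA or TGAGTCA, 5.2% of all), the serum response element core (1.63%) or the heat shock element (alternating GAA and TTC units, 0.603%) lay in any of the 8 windows, each searched on both strands. The heat shock element was counted only as GAA, TTC and GAA in turn, or TTC, GAA and TTC, at a fixed spacing. A lone pair of these units was not counted, and both HSP70 promoters shown hold a GAA followed by a TTC at that spacing. All of these are matches of letters in a short window and say nothing of binding.

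Of the hair cell markers with a probe set 13 of 14 had a mean signal over the filter, and of the supporting cell markers 10 of 11. The exceptions were the outer hair cell motor Slc26a5 and the Notch target Hes5. Of all 18193 genes 13221 were over the filter, as were 11 of 11 macrophage, 8 of 8 fibrocyte and 2 of 6 skeletal muscle markers. Passing the filter thus does not single out the tissue. Dicer1 itself had log2 signals of 9.04 to 9.57 in the controls and 9.06 to 9.41 in the cKO. Median signals per array ran from 67.3 to 100.4 at a trimmed mean of 500. Control base replicate 1 stood apart from the other basal arrays in its signal of the pigment cell gene Dct. This gene, which strial melanocytes use to make melanin, was at 5.96 (log2) there and at 13.65 to 13.91 in the other 3. Among the apical arrays, control apex replicate 1 had the highest Dct (11.87 against 6.19 to 9.37). It also had the lowest signal of the hair cell marker Pou4f3 (5.86 against 7.73 to 8.55). Its summed hair cell markers, at 18022, lay within the 17625 to 19345 of the other apical arrays. Xist, at 12.39 and 12.54 in control mouse 1 against 6.28 to 8.23 in the rest, marked that mouse as female, and sex and this mouse cannot be told apart. For some of the results that leaving out control base replicate 1 moved, the value without it is given beside the result.

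Fos, which encodes the inducible partner of JUN in AP-1, was high on a single array. Its signal, the deposited intensity on a linear scale, was 790 and 985 in control apex, 611 and 696 in control base, 795 and 882 in cKO apex, and 4138 and 859 in cKO base. The other 7 arrays thus lay within a narrow band, and cKO base replicate 1 was 4.2-fold above the highest of these. On the log2 scale the group means were 9.78 ± 0.23 (SD, n = 2) in control apex, 9.35 ± 0.13 in control base, 9.71 ± 0.11 in cKO apex and 10.88 ± 1.60 in cKO base. The spread between the cKO basal replicates exceeded every difference between group means, so that the order of the groups is not resolved.

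Atf3, a stress-inducible repressor of the ATF/CREB family, followed the same array. Its signal was 137 and 108 in control apex, 131 and 95.6 in control base, 86.8 and 76.4 in cKO apex, and 627 and 170 in cKO base. Replicate 1 of the cKO base was 3.69-fold above the next array, which was the other cKO basal sample. Both cKO basal samples therefore lay above the other 6 arrays, and both cKO apical samples were the lowest of the 8.

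Egr1, a zinc finger factor switched on by serum response factor, was also highest in cKO base replicate 1, by 2.09-fold over the next array. Its signal was 1199 and 2379 in control apex, 1551 and 2544 in control base, 1417 and 2126 in cKO apex, and 5658 and 2707 in cKO base. Outside cKO base, replicate 2 was the higher in each group, and apex and base overlapped.

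Of 13221 genes tested, 13 (0.0983%) were highest in cKO base replicate 1 by over 1 log2 unit, and Fos, Atf3 and Egr1 were among them, ranking 3, 5 and 13. The array was picked because these members were high on it, so their place among the 13 is a description. The others, named here because the count is small and chosen after their values were seen, were Rbp4, Mmp13, Acp5, Atp6v0d2, Pmel, Tnmd, Dkk1, Cd109, Mmp9 and Tagln. They include osteoclast and bone matrix genes (Acp5, Atp6v0d2, Mmp9 and Mmp13), the pigment gene Pmel, the tendon gene Tnmd and the smooth muscle gene Tagln. The range over the 8 arrays exceeded 1 log2 unit for 6 of the 9 members tested and for 37.3% of all genes. Over any array, a lead of that size was found in 72 genes (0.545%), 3 of the 9 members tested among them.

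**Figure D1:**
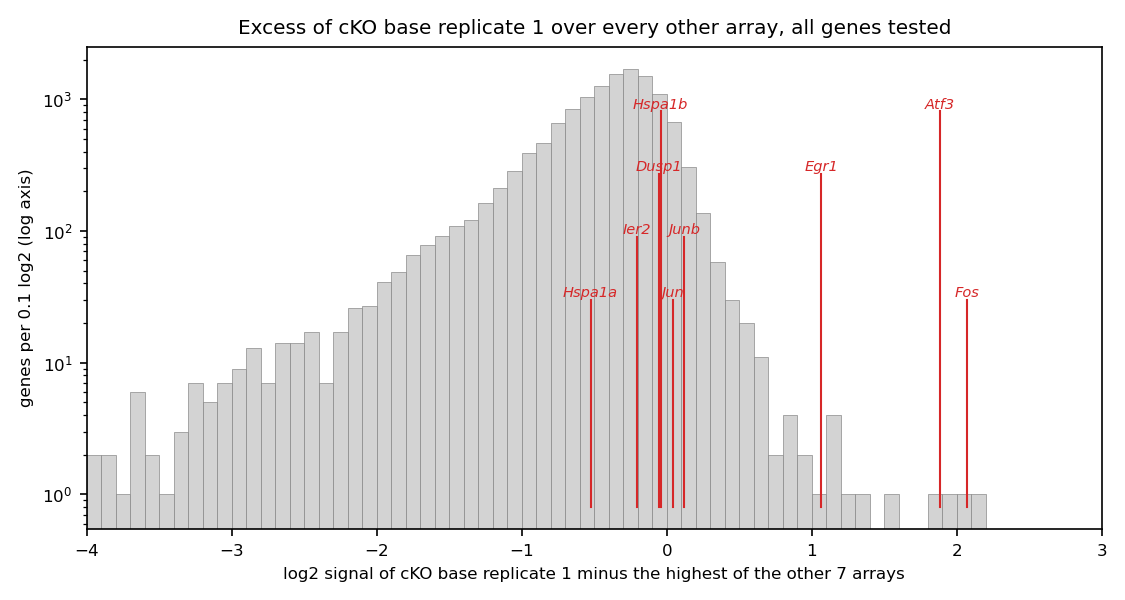
Histogram of the log2 signal of cKO base replicate 1 minus the highest of the other 7 arrays, for the 13221 genes tested (log2 on the horizontal axis, whose lowest values are outside the range shown; number of genes on a logarithmic vertical axis), with 9 members marked in red at heights chosen for legibility. Fos (2.07), Atf3 (1.89) and Egr1 (1.06) lie in the sparse right tail, and the other 6 members lie between -0.53 and 0.12.

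Markers of neighbouring tissues were compared over the same arrays. The summed signal of the stria vascularis and pigment cell markers was 57097 in cKO base replicate 1, 51134 in cKO base replicate 2 and 56298 in control base replicate 2. Of the 10 stria markers tested, 7 were highest in cKO base replicate 1, against 9.52% of all genes. The counts were 5 of 9 for neutrophil, 5 of 8 for fibrocyte, 3 of 5 for bone and 2 of 2 for skeletal muscle markers. They were 2 of 10 for supporting cell, 2 of 11 for macrophage, 0 of 13 for hair cell and 0 of 8 for neuron markers. The summed signal of 5 bone markers was 19600 in cKO base replicate 1, 16752 in replicate 2, 10612 and 14766 in control base, and 5697 to 11558 in the apex. The summed signal of 8 fibrocyte markers was 116089 in cKO base replicate 1 and 82937 to 100272 elsewhere. Neutrophil markers stood at 8236 and 8702 in cKO base and at 2595 to 5089 elsewhere, and macrophage markers at 10004 in cKO base replicate 1, inside the range of 6462 to 11672 over the other arrays. Hair cell markers summed to 13724 and 10939 in cKO base and to 17458 and 10733 in control base, so that these groups overlapped. The sums of stria, bone, fibrocyte and skeletal muscle markers (309 against at most 297 for the last) were highest in cKO base replicate 1. Neutrophil markers were high in both cKO basal samples. Single markers also led in cKO base replicate 1, the bone markers Acp5 and Mmp9 by 3.79-fold and 2.24-fold and the pigment marker Pmel by 2.47-fold. No other listed marker that was tested led there by over 1 log2 unit. The part of these tissues in the result was not tested.

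Among the remaining AP-1 subunits, Junb was highest in cKO base replicate 1, but by 1.09-fold over the next array, control base replicate 2. JUNB is an AP-1 partner that often opposes JUN. Its signal was 127 and 136 in control apex, 114 and 188 in control base, 110 and 123 in cKO apex, and 204 and 177 in cKO base. Both cKO basal samples lay above all 4 apical samples, while control base replicate 1 was below 3 of the 4 apical arrays.

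Jun, the subunit that can bind DNA as a pair with itself, varied least among the members tested. On its brighter probe set the signal was 1082 and 963 in control apex, 1198 and 820 in control base, 1077 and 901 in cKO apex, and 1232 and 941 in cKO base. Replicate 1 exceeded replicate 2 in all 4 groups, and the whole range was 1.5-fold, a log2 range wider than that of 28.3% of the genes tested. The dimmer Jun probe set ran from 343 to 686, also highest in cKO base replicate 1, and correlated with the first at r = 0.71 over the 8 arrays (a description, since arrays share mice).

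Fosb, a relative of FOS, was not over the filter (a mean log2 signal of 5.27, or a signal of 38.7) and was not tested. Its signal was 21.4 and 19.7 in control apex, 5.22 and 29.1 in control base, 26.1 and 15.3 in cKO apex, and 53.1 and 2.93 in cKO base. Only cKO base replicate 1 exceeded the filter's signal.

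Ier2, an early response nuclear protein, was lowest in cKO apex replicate 1 and highest in control base replicate 2, an array on which 19.0% of all genes were highest. Its signal was 810 and 1082 in control apex, 944 and 1671 in control base, 713 and 878 in cKO apex, and 1451 and 1089 in cKO base. Apex and base overlapped in controls and did not in the cKO.

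Dusp1, which dephosphorylates MAP kinases and ends their signal, was split differently. Its signal was 3004 and 1624 in control apex, 2696 and 2509 in control base, 1779 and 1712 in cKO apex, and 2898 and 2342 in cKO base. Control apex replicate 1 stood with the 4 basal arrays, and the other 3 apical arrays lay below all of them.

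Control apex replicate 1, the highest array for 13.6% of all genes, was the highest for Dusp1, Hspa1a and Hspa1b. Hspa1a had a signal of 1230 and 720 in control apex, 632 and 630 in control base, 592 and 673 in cKO apex, and 855 and 679 in cKO base. Control apex replicate 1 was 1.44-fold above the next array, cKO base replicate 1. For Hspa1b, on its brightest probe set, the signal was 2090 and 1304 in control apex, 1720 and 965 in control base, 911 and 1060 in cKO apex, and 2029 and 1183 in cKO base.

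Hspa1b had 3 probe sets, which placed the top array differently. Of these, 2 were highest in cKO base replicate 1, at 1771 against at most 1213 elsewhere and at 2707 against at most 1582 elsewhere. The third was highest in control apex replicate 1, by 1.03-fold over cKO base replicate 1. Correlations between them over the 8 arrays were 0.985, 0.874 and 0.881, and that of Hspa1a with the brightest Hspa1b probe set was 0.764. Since the genes are near-identical copies, and 1 of these probe sets is of the type that can cross-hybridise, values of either gene may include signal of the other.

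**Figure D2:**
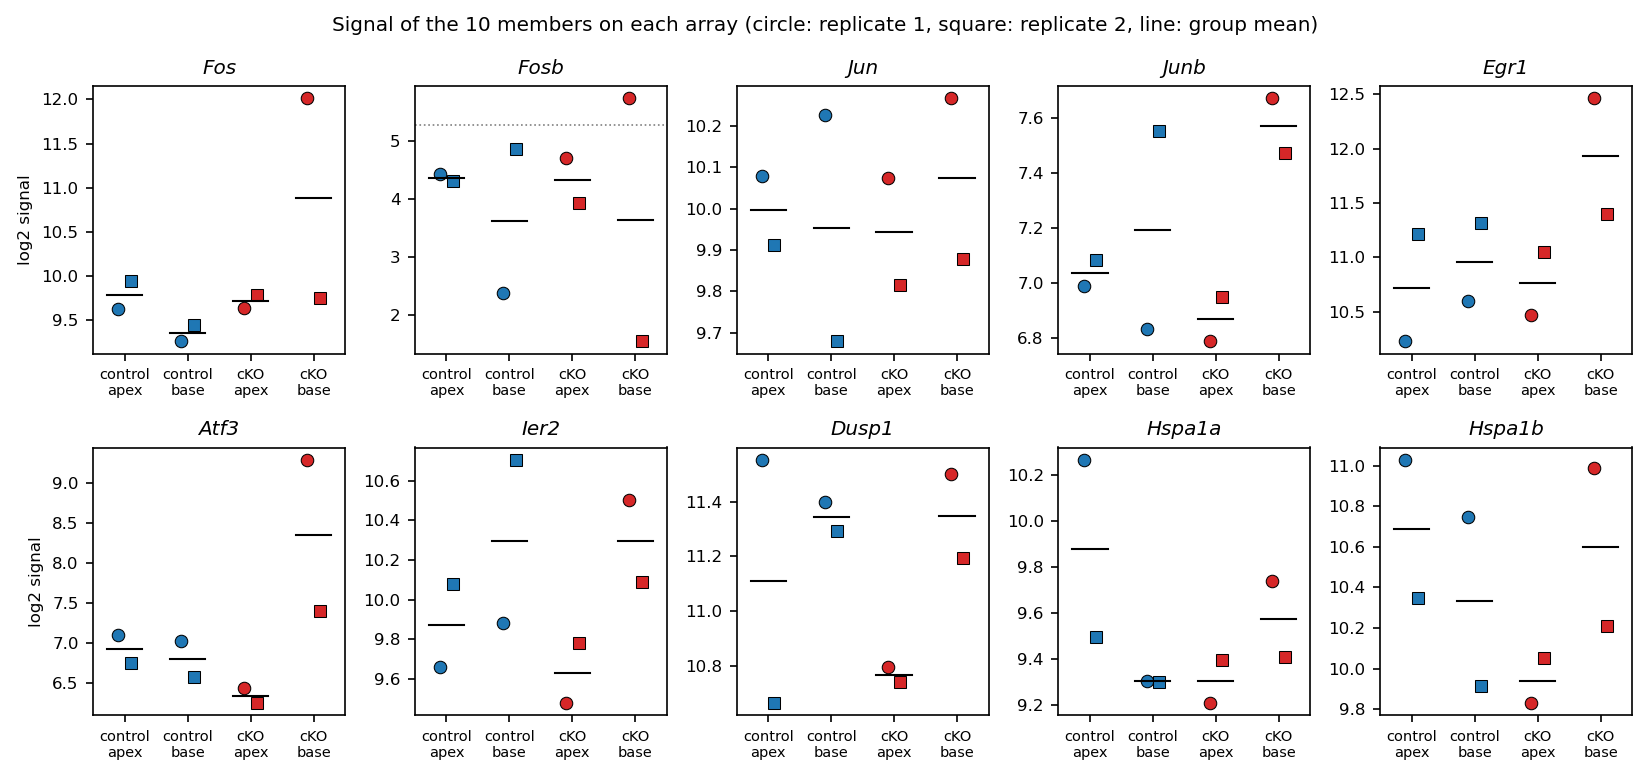
Log2 signal of each of the 10 members on each array, by group (blue control, red cKO; circle replicate 1, square replicate 2; line, group mean of 2 arrays); vertical axes differ between panels and do not start at 0, and the dotted line for Fosb is the filter at 5.27. Fos, Atf3 and Egr1 have their highest point in cKO base replicate 1, while Dusp1, Hspa1a and Hspa1b have theirs in control apex replicate 1.

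The first comparison asked whether the members differed between genotypes in the apex. In the apex 8 of 9 members tested were lower in the cKO, the exception being Egr1, with a median difference of -0.24 (log2), where 50.1% of all genes were higher and the median was 0.001. At an adjusted p of 0.05 (limma) no gene was called in the apex (0.0% of 13221), and no member had an unadjusted p under 0.05 (2.19% of all genes). The differences for the HSP70 genes had the smallest p among the members. Hspa1b was 1.68-fold lower (-0.75 ± 0.38, log2, SE) and Hspa1a 1.49-fold lower (-0.58 ± 0.27), both with adjusted p = 1 (limma). The other Hspa1b probe sets gave -0.568 ± 0.41 and -0.569 ± 0.483.

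Both cKO apical arrays lay below both control apical arrays for Junb, Atf3, Hspa1a and Hspa1b, 4 of 9 members, against 16.2% of all genes. Atf3 gave -0.58 ± 0.56 and Junb -0.17 ± 0.30. Dusp1 gave -0.34 ± 0.28, Ier2 -0.24 ± 0.31, Fos -0.08 ± 0.61, Jun -0.05 ± 0.24 and Egr1 0.04 ± 0.46. For these 5 the difference was below or near its SE. Leaving out control apex replicate 1 moved the HSP70 values to -0.41 for Hspa1b and -0.19 for Hspa1a, and Dusp1 changed sign to 0.10. That array is from the female, and had the highest Dct (11.87) and the lowest Pou4f3 (5.86) of the apical arrays. The part of either in these shifts was not tested. Over all arrays left out in turn, Hspa1b ran from -1.09 to -0.41 and Hspa1a from -0.96 to -0.19.

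In the base all 9 members tested were higher in the cKO on the probe set read for each, Dusp1 and Ier2 by at most 0.003. The dimmer Jun probe set was lower, at -0.122 ± 0.325 (log2, SE). The median of the 9 was 0.27 against -0.002 for all genes, of which 49.8% were higher. Again no gene passed the adjusted threshold (0.0%), while Fos and Atf3 were the 2 members with an unadjusted p under 0.05, as were 3.12% of all genes. Atf3 was 2.92-fold higher (1.55 ± 0.56, log2, SE) and Fos 2.89-fold higher (1.53 ± 0.61), both with adjusted p = 1 (limma). Egr1 was 1.97-fold higher (0.98 ± 0.46). Junb gave 0.38 ± 0.30, Hspa1a 0.27 ± 0.27, Hspa1b 0.27 ± 0.38 and Jun 0.12 ± 0.24, and Dusp1 and Ier2 gave 0.003 ± 0.28 and 0.001 ± 0.31.

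The basal differences of Fos, Atf3 and Egr1 rested largely on cKO base replicate 1. Without it, 5 of 9 members were higher and the median was 0.11. Fos was then at 0.40 ± 0.25, Atf3 at 0.60 ± 0.39 and Egr1 at 0.45 ± 0.50, each still above 0, while Jun, Ier2, Dusp1 and Hspa1b gave -0.07, -0.21, -0.15 and -0.12. Without cKO base replicate 2, Fos, Atf3 and Egr1 gave 2.67, 2.49 and 1.51. Without control base replicate 1 the count was 8 of 9, with Fos at 1.44, Atf3 at 1.77 and Egr1 at 0.62, and without control base replicate 2 it was 6 of 9. Junb, at 0.28 without cKO base replicate 1, rested on the controls: it was at 0.019 without control base replicate 1 and at 0.74 without control base replicate 2. Jun gave 0.39 and -0.15, Hspa1b 0.68 and -0.15, and Ier2 -0.41 and 0.41 in these refits. Both cKO basal arrays lay above both control basal arrays for Fos, Egr1, Atf3 and Hspa1a, 4 of 9, against 13.1% of all genes.

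**Figure D3:**
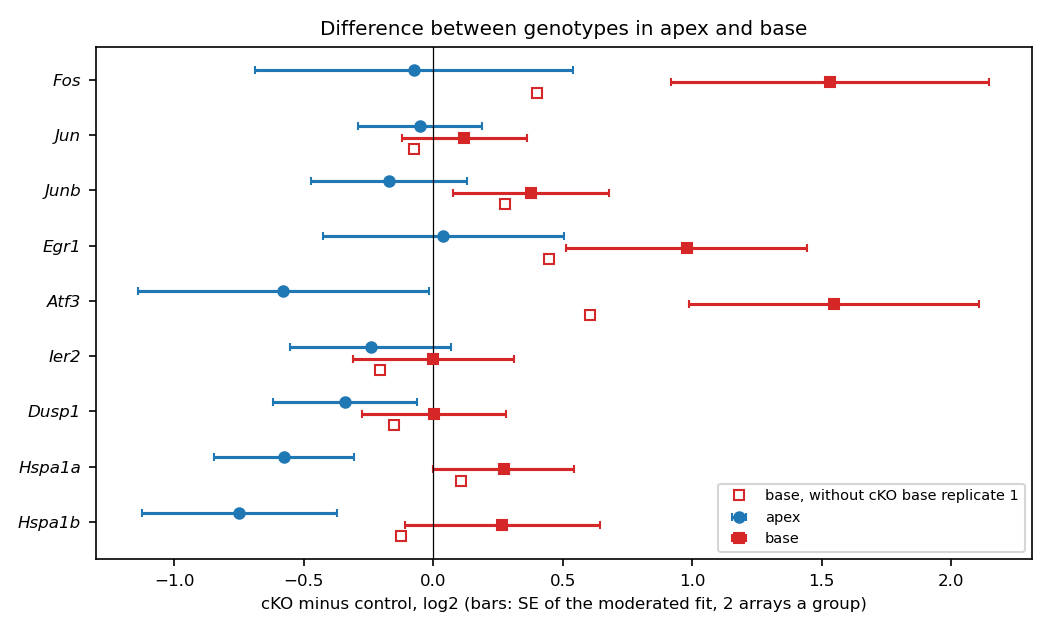
Difference between cKO and control (log2 signal) for 9 members in apex (blue circles) and base (filled red squares), with bars for the SE of the moderated limma fit (2 arrays a group), and the basal difference without cKO base replicate 1 (open red squares). In the base Fos, Atf3 and Egr1 move from 1.53, 1.55 and 0.98 to 0.40, 0.60 and 0.45 when that array is left out.

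Over both regions, with 1 mean for each presumed mouse, the members went both ways, 5 of 9 being higher in the cKO against 49.7% of all genes. Fos gave 0.73 ± 0.37, Egr1 0.51 ± 0.30 and Atf3 0.48 ± 0.40, while Hspa1b gave -0.24 ± 0.28, Dusp1 -0.17 ± 0.20 and Hspa1a -0.15 ± 0.19. Each had an adjusted p of 0.999 (limma), and no gene passed (0.0%), with 2.41% of all genes and no member at an unadjusted p under 0.05. Without cKO base replicate 1, which removes that mouse from the means, Fos gave 0.20 and Atf3 -0.03. Egr1 gave 0.083 without control mouse 1 and 0.93 without control mouse 2.

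Whether the genotype difference itself differed between base and apex was tested directly. All 9 members had a larger value in the base, with a median of 0.85 against -0.004 for all genes, of which 49.5% were above 0. Atf3 gave 2.13 ± 0.79 (log2, SE) and was the only member with an unadjusted p under 0.05 (1.13% of all genes). Fos gave 1.61 ± 0.87, Hspa1b 1.02 ± 0.53, Egr1 0.94 ± 0.66 and Hspa1a 0.85 ± 0.38, each with adjusted p = 1 (limma), and no gene passed (0.0%). Without cKO base replicate 1, 8 of 9 stayed above 0 (Jun was at -0.02), the median was 0.45, Atf3 gave 1.18 ± 0.51 and Fos 0.47 ± 0.33. This contrast and those in apex and base use the same arrays.

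The last comparison was base against apex, tested on the group means without a term for the mouse, with the differences within each presumed mouse given as values. Over both genotypes 8 of 9 members were higher in the base, Hspa1a being the exception, with a median of 0.41 where 47.4% of all genes were higher and their median was -0.02. Egr1 and Ier2 were higher in the base in all 4 mice, as were 16.0% of all genes. For Egr1 the base exceeded the apex by 0.37 and 0.10 in the controls and by 2.00 and 0.35 in the cKO mice. For Ier2 these values were 0.22, 0.63, 1.03 and 0.31. Ier2 gave a mean difference of 0.55 ± 0.22 (adjusted p = 0.261, limma), Atf3 0.94 ± 0.40 (0.284), Egr1 0.70 ± 0.33 (0.33), Dusp1 0.41 ± 0.20 (0.345) and Junb 0.43 ± 0.21 (0.358). The remaining members gave 0.37 ± 0.43 (Fos), 0.15 ± 0.27 (Hspa1b), 0.04 ± 0.17 (Jun) and -0.15 ± 0.19 (Hspa1a). The other Hspa1b probe sets gave 0.483 ± 0.29 and 0.458 ± 0.341.

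No member passed the threshold for base against apex, where 157 genes (1.19%) did. Ier2 and Atf3 had an unadjusted p under 0.05, as did 17.2% of all genes. Without control base replicate 1, the array low in stria transcripts, Ier2 passed (0.75 ± 0.18, adjusted p = 0.0344, limma) along with 1518 genes in all. Without cKO base replicate 1, 5 of 9 members were higher in the base, with Atf3 at 0.47, Egr1 at 0.44 and Fos at -0.20.

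The array of cKO base replicate 1 read above cKO base replicate 2 for all 9 members (51.3% of all genes), and by over 1 log2 unit for 3 (1.82%). It was singled out by the members' own values, so the counts given here for it and its mouse are descriptions without a test. In both cKO mice the base was above the apex for 8 of 9 members, Fos being the exception (29.5% of all genes). The mouse of that array, cKO mouse 1, had both extremes. Its apex was the lowest of the 8 arrays for Junb, Ier2, Hspa1a and Hspa1b, 4 of 9, where 12.7% of all genes were lowest, and its base was the highest for Fos, Jun, Junb, Egr1 and Atf3, 5 of 9, where 9.52% of all genes were highest on that array. Base minus apex in this mouse was 2.85 for Atf3, 2.38 for Fos, 2.00 for Egr1 and 1.16 for Hspa1b. In the other cKO mouse these were 1.15, -0.04, 0.35 and 0.16, and in the controls they ran from -0.50 to 0.37. Of these 4, Atf3 alone was over 1 log2 unit higher in the base in both cKO mice.

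**Figure D4:**
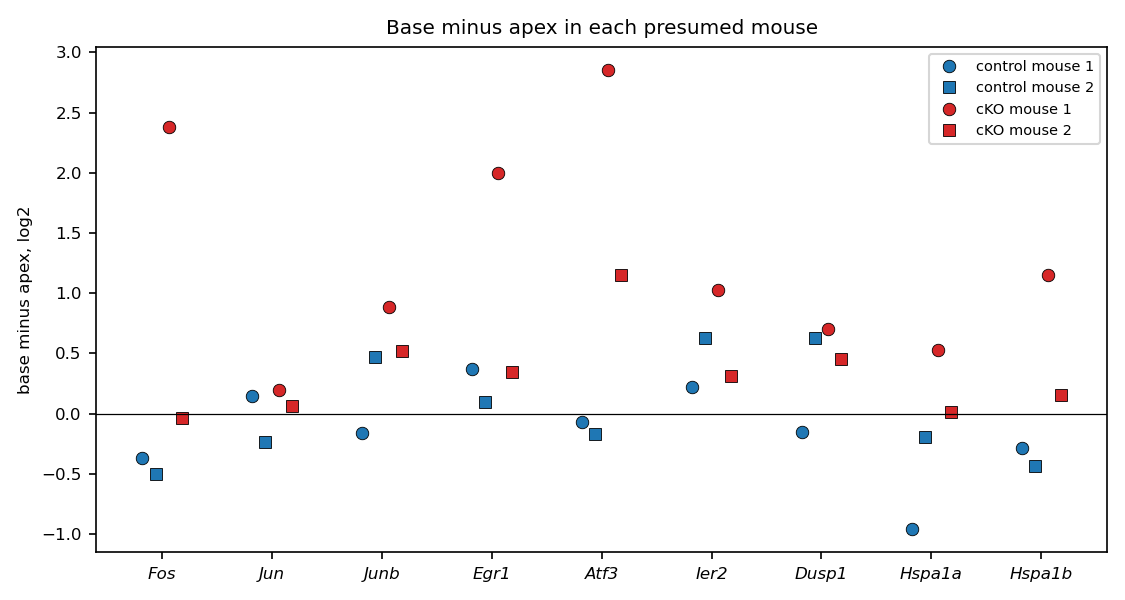
Base minus apex (log2 signal) of 9 members in each presumed mouse (blue control, red cKO; circle mouse 1, square mouse 2). cKO mouse 1 is the highest point for all 9, at 2.38 for Fos and 2.85 for Atf3, and the 2 control mice lie on opposite sides of 0 for Jun, Junb and Dusp1.

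Further genes of the same pathways were read from lists chosen with earlier results of these data known. Of 4 other AP-1 subunits tested, 3 (Fosl2, Jund and Maff) were also highest in cKO base replicate 1, with leads of 0.30, 0.11 and 0.34 (log2). Among 31 further immediate early genes the number was 6 (Btg2, Zfp36, Trib1, Gadd45b, Per1 and Cebpd), with leads of at most 0.48. The share of all genes highest on that array was 9.52%. None of these leads approached that of Fos or Atf3.

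Between genotypes in the base, 0 of 31 further immediate early genes passed in either direction (1 at an unadjusted p under 0.05), with a median of 0.06. Nr4a3, an orphan nuclear receptor, was 1.72-fold higher (0.78 ± 0.31, log2, SE, not past the threshold) and was the only one in that list with a p that small. Its log2 signals were 6.42 and 6.17 in control base and 6.96 and 7.18 in cKO base, so that it did not follow cKO base replicate 1. Its genotype difference in the base exceeded that in the apex by 1.10 ± 0.44, not past the threshold. Trib1, a pseudokinase of the tribbles family, gave 0.64 ± 0.35, and the AP-1 subunits Fosl2 and Maff 0.47 ± 0.28 and 0.55 ± 0.32. Without control base replicate 1, Trib1 gave 0.34 and Fosl2 0.10.

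Of 20 heat shock chaperones and cochaperones tested beside the HSP70 pair, in the base 5 were higher and 15 lower in the cKO (median -0.09, 0 past the threshold). The HSP70 family member Hspa2 was at -0.67 ± 0.24 and the cochaperone Stip1 at -0.51 ± 0.24 (-0.18 without control base replicate 1). In the apex 8 were higher and 12 lower (median -0.11, 0 past), with the mitochondrial chaperonin Hspd1 at -0.37 ± 0.17 and the small heat shock protein Hspb1 at -0.45 ± 0.24. Of 12 endoplasmic reticulum and integrated stress genes, 4 were higher and 8 lower in the base (median -0.05, 0 past), with the chaperone partners Sdf2l1 at -0.62 ± 0.26 and Hsp90b1 at -0.31 ± 0.17. In the apex the count was the same, with the calcium-binding chaperone Calr at 0.23 ± 0.15 and Herpud1 at -0.18 ± 0.15. Of 6 MAP kinase phosphatases and 11 upstream regulators, 0 passed between genotypes in either region. Among the phosphatases Dusp4 and Dusp6 gave -0.32 ± 0.25 and 0.19 ± 0.19 in the apex, and Dusp6 and Dusp8 -0.25 ± 0.19 and 0.33 ± 0.26 in the base. Among the regulators Srf and Creb1 gave 0.31 ± 0.20 and 0.14 ± 0.14 in the apex, and Elk4 and Creb1 0.22 ± 0.18 and 0.16 ± 0.14 in the base. Of the further immediate early genes in the apex (18 higher, 13 lower, 0 past), the growth arrest gene Gadd45g was at 0.42 ± 0.22 and Ier5 at 0.30 ± 0.21, and of the AP-1 subunits Mafk was at -0.32 ± 0.23 and Maff at 0.25 ± 0.32.

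Between base and apex 3 genes of these lists passed the threshold, all higher in the base. They were 2 of 31 further immediate early genes and 1 of 20 heat shock chaperones and cochaperones. Of all genes 1.19% passed, 78 being higher and 79 lower in the base. Ccn1, a secreted matricellular protein, was 2.59-fold higher (1.37 ± 0.20, adjusted p = 0.0299, limma). Its log2 signals were 8.84 to 9.36 in the apex and 10.28 to 11.02 in the base. Ccn2, its connective tissue relative, was 2.17-fold higher (1.12 ± 0.16, adjusted p = 0.0299), at 11.63 to 11.90 in the apex and 12.44 to 13.14 in the base. Hspb8, a small heat shock protein of the autophagy pathway, was 1.74-fold higher (0.80 ± 0.13, adjusted p = 0.0381), at 9.80 to 9.96 in the apex and 10.48 to 10.82 in the base.

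All 3 calls were lost when any 1 of the 2 cKO basal, 2 cKO apical or 2 control apical arrays was left out, with the differences still at 1.27 to 1.48, 1.07 to 1.16 and 0.72 to 0.89, and were kept without either control basal array. Stria vascularis markers, at 22372 to 27952 in the apex, were at 51134 to 57097 in 3 basal arrays and at 21131 in control base replicate 1, and their part in these calls was not tested. Among those that did not pass were Fosl2 (0.44 ± 0.20), Dusp4 (0.31 ± 0.18), the stress factor Atf4 (0.31 ± 0.14), Creb1 (-0.22 ± 0.10) and the kinase Mapk14 (0.21 ± 0.11). The AP-1 partner Mafk (0.48 ± 0.16), the phosphatase Dusp16 (-0.49 ± 0.10) and the endoplasmic reticulum stress gene Herpud1 (0.43 ± 0.11) did not pass either. Without control base replicate 1, Dusp16 and Herpud1 passed (adjusted p = 0.0204 and 0.0271, limma).

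Members resembled each other mainly through cKO base replicate 1. Over the 36 pairs of the 9 members, Pearson correlations across the 8 arrays had a median of 0.44, with 32 above 0. Without that array the median was 0.12, with 21 above 0. The correlation of Fos with Atf3, the member closest to it, was 0.88 over 8 arrays and -0.14 over the other 7. Among pairs that changed little without it were Junb with Ier2 (0.885 and 0.854), Egr1 with Junb (0.841 and 0.759) and Hspa1a with Hspa1b (0.764 and 0.757). The arrays come from 4 presumed mice, so these are descriptions without a test.

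The 8 other genes with a log2 range of at least 1 whose pattern was most like the mean of the members were Trpv2, Pmel, Tagln, Ercc6l, Rbp4, Acta2, Npc1l1 and Zhx2, at r = 0.978 to 0.833 over 8 arrays. Without cKO base replicate 1 these ran from 0.886 for Trpv2 to 0.229 for Zhx2. Trpv2 encodes a cation channel, and its log2 signals ran from 6.60 to 7.04 on 7 arrays and stood at 7.86 in cKO base replicate 1. None of the 8 is in the lists of immediate early or heat shock genes.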

How the data were processed

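Values are the intensities the authors deposited for each probe set on a linear scale. Per the submitters' processing notes, MAS5 and affy 1.26 were used, with role and order not stated; every array has a trimmed mean (2% off each end) of 500 and none was brought to another's distribution. The number of arrays limits precision.

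Signals were log2 transformed without a pseudocount. Of 34945 probe sets annotated to 1 gene, the brightest on average stood for its gene (932 had several and 9160 none listed). A filter at the 40th percentile of mean log2 signal (5.274) left 13221 genes. limma 3.58.1 (R 4.3.3) was fitted to 4 group means with an intensity trend (4 residual degrees of freedom, 3.46 prior), and to mouse means for the genotype over both regions. Tests were two-sided and adjusted by Benjamini-Hochberg over all genes at 0.05. Simulated independent arrays, with no shared mouse, served to check the size of the estimated differences only, not the calls. Replicates are separate mice per the labels. Named genes were the members, in each list the genes past the threshold (up to 4) or else the 2 of smallest p, and the 8 genes most correlated with the members. List genes are named for apex, base and base against apex. Members and lists were chosen with earlier results of these data known. Alternatives covered filter, pseudocount, scaling, probe sets, variance model, floor, groups fitted, pairing and each array left out. Apex and base of one number were presumed to be one mouse.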

Additional observations from a re-analysis of the deposited data

How the results depend on the processing

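For the members, settings other than leaving out an array changed no call. They turned the sign of 3 values near 0: with a mean over the probe sets of a gene, Jun gave -0.00071 in the base and -0.07576 over mouse means, and with quantile normalization Dusp1 gave -0.00037 in the base. Without an intensity trend 1 gene each passed between genotypes in apex and base. For base against apex, 98 genes passed with the mean of probe sets, 70 without the trend (where Ccn1, Ccn2 and Hspb8 no longer passed), 527 with the presumed mouse as a random replicate block and 255 with it as a fixed replicate block. Ccn1 (adjusted p = 0.185) and Hspb8 (0.274) also missed the threshold with the mean of probe sets, and Hspb8 (0.053) with every probe set fitted. The replicate block changed no member's call, and with it as a random term Dusp16 passed (adjusted p = 0.029, limma). Deviations of apex and base samples of one number correlated at 0.339 in controls and 0.068 in cKO, so the pairing stays presumed. The cause of these shifts was not tested.

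Leaving out 1 array at a time gave 0 to 0 genes in the apex, 0 to 37 in the base (37 without control base replicate 2), 0 to 9 over mouse means, 0 to 0 for the difference between regions and 0 to 1518 for base against apex (0 without cKO apex replicate 1, cKO apex replicate 2 or cKO base replicate 1, and 1518 without control base replicate 1). Of 496 such refits of members and named list genes, 42 turned a sign, each that of a member. Over mouse means, leaving out either array drops the whole presumed mouse, so that each such turn is counted under both its arrays. In the apex Fos ran from -0.23 to 0.084, Jun from -0.18 to 0.078, Egr1 from -0.46 to 0.53 and Dusp1 from -0.78 to 0.10. In the base Jun ran from -0.15 to 0.39, Ier2 from -0.41 to 0.41, Dusp1 from -0.15 to 0.16 and Hspa1b from -0.15 to 0.68. Over mouse means Jun ran from -0.14 to 0.21, Junb from -0.10 to 0.31, Atf3 from -0.033 to 1.00, Ier2 from -0.43 to 0.19, Dusp1 from -0.42 to 0.079, Hspa1a from -0.35 to 0.042 and Hspa1b from -0.62 to 0.14. For base against apex Fos ran from -0.20 to 0.93, Jun from -0.094 to 0.18, Hspa1a from -0.35 to 0.040 and Hspa1b from -0.059 to 0.36. For the difference between regions Jun ran from -0.10 to 0.44, Ier2 from -0.17 to 0.66 and Dusp1 from -0.10 to 0.79. With 2 arrays a group and 4 residual degrees of freedom, differences could have been missed.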
